A study of Mus musculus with 6 samples.

Results

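The cyclin-dependent kinase (CDK) inhibitors of the Cip/Kip and Ink4 families were examined in sorted adult hematopoietic stem cells (HSCs) of PU.1 ki/ki and wild-type mice. All probe sets whose platform gene symbol was Cdkn1a, Cdkn1b, Cdkn1c, Cdkn2a, Cdkn2b, Cdkn2c or Cdkn2d were taken. These were 9 of 45037 probe sets, 5 for the 3 Cip/Kip genes and 4 for the 4 Ink4 genes, and 0 probe sets shared a member's symbol with another gene. RNA had been measured on 6 single-colour arrays, 3 from mice homozygous for a PU.1 knock-in allele and 3 from wild-type mice, all adult. All cells came from 1 gate, lin-sca1+ckit+CD150+CD48-, and were lysed in Trizol after the sort. The labels call the allele a knock-in only. From the study it is known as a germline change of a PU.1 binding site in the upstream regulatory element of Spi1, the gene of the transcription factor PU.1, so that every cell of the animal carries it. Whether the replicates are separate animals is not stated in the labels, and the p-values then measure only the spread between these arrays, which may be technical.

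CDK inhibitors hold cells in G1. The Cip/Kip proteins p21 (Cdkn1a), p27 (Cdkn1b) and p57 (Cdkn1c) bind complexes of CDK2 with cyclin E or A and also complexes of CDK4 or CDK6 with cyclin D. The Ink4 proteins p16 (Cdkn2a), p15 (Cdkn2b), p18 (Cdkn2c) and p19 (Cdkn2d) bind only CDK4 and CDK6 and keep cyclin D from them. In adult HSCs p57 is known for its part in quiescence, p27 acts alongside it, p18 limits self-renewal, and p16 and the Arf protein of the same locus are kept silent by Polycomb repressors. The series title concerns PU.1 as a brake on HSC proliferation, and the comparison asks whether transcripts of these inhibitors differ between the genotypes.

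Of the 9 probe sets, 0 passed an adjusted p of 0.05 between the genotypes (limma, adjusted over all 45037 probe sets, of which 0% passed). The lowest reading relative to wild type was that of Cdkn1c, at 2.64-fold lower intensity, and its groups did not overlap. The brightest probe sets of all 3 Cip/Kip genes had lower means in PU.1 ki/ki, with log2 differences of -1.40 to -0.44, and 2 of the 3 overlapped between groups. The 4 Ink4 probe sets differed by -0.24 to 0.29 with overlap in all 4. At an unadjusted p under 0.05 there was 1 member, Cdkn1c, against 8.28% of all probe sets in either direction and 3.68% with PU.1 ki/ki lower, and an unmoderated test per probe set also called 0 after adjustment.

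The arrays of the wild-type group were less alike than those of the knock-in group. Signal was counted as lost where a probe set with a median of 512 or more over the remaining arrays read 4-fold or further below that median. Wild-type replicates 2 and 3 had lost 11.5% and 11.3% of such probe sets, and replicate 1 had lost 1.12%. The knock-in arrays had lost 0.119% to 0.219%. Results are therefore also given without wild-type replicates 2 and 3, which leaves 1 wild-type array that is assumed to vary like the PU.1 ki/ki arrays. Of 8 measured HSC and gate genes, 8 were above the array median (41 to 46) on every array. Slamf1, which encodes CD150, was only just so on wild-type replicates 2 and 3, at 54 and 42. The summed intensity of the 8 genes was 6533 to 8256 in knock-in HSCs and 4244 to 7127 in wild type. Cd48, which the gate excludes, read 90 to 290 and 75 to 704. Spi1 itself read 181 ± 27.2 (SD, n = 3) in knock-in HSCs and 184 ± 22.6 in wild type, a log2 difference of -0.03 (adjusted p = 0.992, limma). The known change lies in a regulatory element, so the transcript stays readable in both genotypes, and its level did not tell the groups apart. The genotypes are therefore those of the labels, with no check from Spi1.

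Intensities of different probe sets depend on their probes as well as on the transcript, so the members cannot be ranked against each other by abundance, and each level is given against the table's minimum of 10 and the array medians only. Of the 9 probe sets, 6 lay above the array median on all 6 arrays: the brighter one of Cdkn1a, both of Cdkn1b, and those of Cdkn1c, Cdkn2c and Cdkn2d. The second probe set of Cdkn1a did so on 2 arrays, that of Cdkn2b on 1 and that of Cdkn2a on 0. These last 3 were removed by a filter that left out probe sets with a mean below the median of all, and the other 6 passed it. No member was at the minimum on any array.

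**Figure D1:**
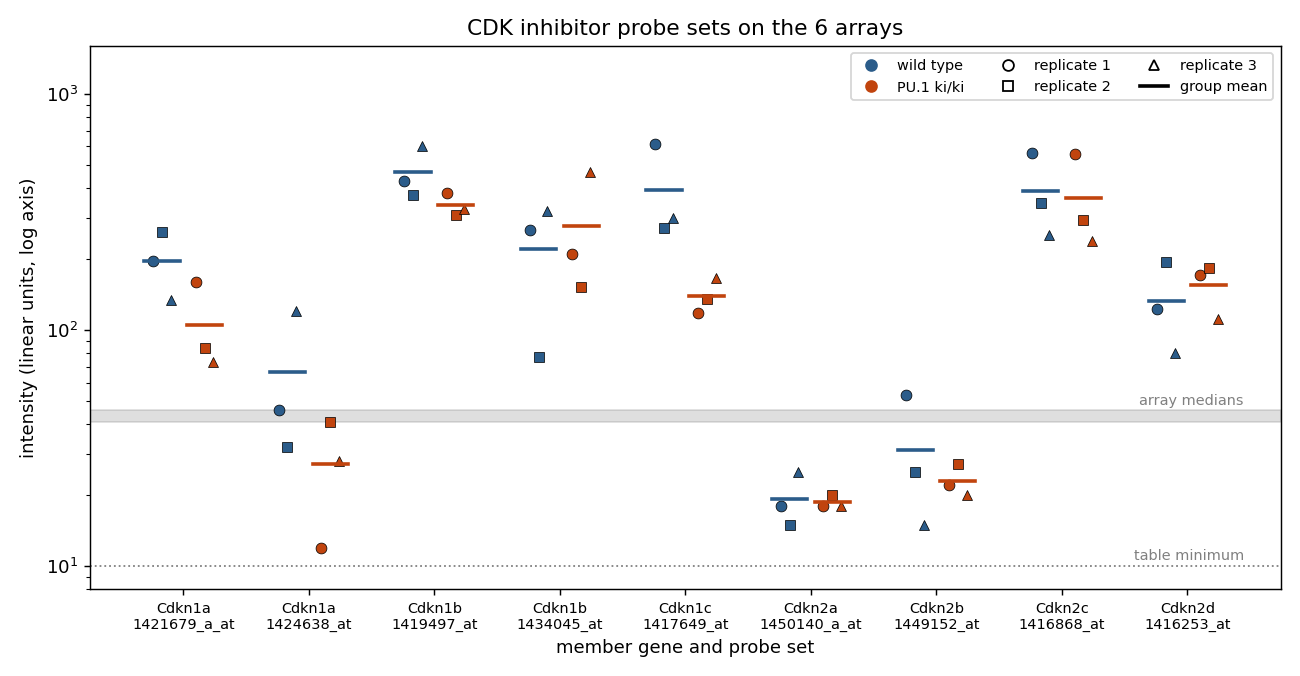
Intensity (linear units, log axis) of the 9 probe sets of the 7 CDK inhibitor genes on each array, with wild type in blue, PU.1 ki/ki in red, a symbol for each replicate number and a bar at each group mean. For Cdkn1c the wild-type arrays read 271 to 612 and lie above the PU.1 ki/ki arrays at 118 to 167, and the other 8 probe sets overlap between groups.

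Cdkn1c encodes p57, an imprinted CDK inhibitor expressed from the maternal allele. Its probe set, 1417649_at, read 118, 135 and 167 on PU.1 ki/ki replicates 1 to 3. On wild-type replicates 1 to 3 it read 612, 271 and 298. The highest PU.1 ki/ki array lay below the lowest wild-type array, and wild-type replicate 1 lay well above the other wild-type arrays. The means were 140.0 ± 24.9 and 394 ± 190 (SD, n = 3), a coefficient of variation of 17.8% and 48.2%. The log2 difference was -1.40 ± 0.37 (SE, 95% interval -2.34 to -0.46, adjusted p = 0.508, limma). The unadjusted p of 0.0122 was only the 1071st smallest of 45037. By exact permutation (two-sided) p was 0.1, the smallest that 3 arrays against 3 allow. Groups without overlap were found for 12.1% of all probe sets, 5.46% with PU.1 ki/ki lower, so 1 of 9 members is near the background. In these sorted populations fewer cells with the transcript and less of it per cell cannot be told apart.

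Wild-type replicates 2 and 3, the arrays with lost signal, gave the lower wild-type readings of Cdkn1c. Without wild-type replicates 2 and 3 the difference was -2.13 ± 0.26 (adjusted p = 0.284), the lowest of all settings tried, with the array at 612 as the only one of wild type. Without wild-type replicate 1 it was -1.03 ± 0.20 (adjusted p = 0.175). Leaving out the other arrays one at a time gave -1.62 to -1.28. The groups did not overlap after quantile normalization or median centring either, and the adjusted p was 0.175 to 0.882 over 15 alternatives.

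Of 5 measured neutrophil markers the granule genes Elane and Mpo were highest on wild-type replicate 1, as Cdkn1c was, and were picked for it. S100a8 was highest on wild-type replicate 3, and Ltf and S100a9 on PU.1 ki/ki replicate 2. Elane, neutrophil elastase, read 1011, 739 and 833 on the knock-in arrays and 3640, 1123 and 853 on the wild-type arrays. Mpo, myeloperoxidase, read 4105, 4251 and 3027 and then 6717, 3409 and 4570. All 5 had a lower mean log2 intensity in PU.1 ki/ki, with differences of -0.83 to -0.21, and 1 of them, S100a8, did not overlap. Their summed intensity was 10756 to 16035 in knock-in HSCs and 14391 to 20462 in wild type. All 3 mast cell markers were lower as well, 2 without overlap, with summed intensities of 61 to 102 and 141 to 225. All 5 macrophage markers went the other way, 2 without overlap, with sums of 327 to 985 and 145 to 180. Of the 5, Adgre1 read 10 to 25 on all arrays. C1qb, 1 of the 2 without overlap, read 567, 119 and 73 in knock-in HSCs and the minimum of 10 on all 3 wild-type arrays. T and NK cell markers summed to 336 to 444 in knock-in HSCs and 459 to 719 in wild type. Mean log2 intensity was lower for 4 of 6 markers, and Cd3e alone had no overlap. B cell markers summed to 283 to 325 and 176 to 753, and all 4 had lower mean log2 intensities, Cd79a without overlap. The 2 erythroid markers went opposite ways, both without overlap. Klf1, an erythroid transcription factor, read 118, 123 and 159 in knock-in HSCs against 42, 21 and 11 (2.57), and the globin gene Hba-a1 36, 47 and 36 against 65, 85 and 48 (-0.69). Megakaryocyte markers summed to 1002 to 2330 and 650 to 1541, with 3 of 4 higher and 0 without overlap. Among the HSC and gate genes Cd34, which is low on the most immature adult mouse HSCs, read 1152, 583 and 1196 in knock-in HSCs and 98, 64 and 200 in wild type (3.09, adjusted p = 0.430, limma). Tek, the receptor Tie2, read 722, 730 and 523 against 321, 341 and 291 (1.04, adjusted p = 0.430). These were the only 2 of the 8 HSC and gate genes without overlap. Neutrophil markers were above the array median on every array in 5 of 5 and megakaryocyte markers in 3 of 4. This held for 1 of 5 macrophage, 1 of 6 T and NK cell and 1 of 4 B cell markers. It held for 0 of 3 mast cell and 0 of 2 erythroid markers. The mast cell marker Ms4a2 and the B cell marker Cd79a, both without overlap, lay below the array median on every array. Of all named genes 12.8% had no overlap, 6.36% with PU.1 ki/ki lower and 6.44% with it higher. The part of these cell types and genes in the difference of Cdkn1c was not tested.

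The profile of Cdkn1c over the 6 arrays was compared with those of 10987 other named genes, each by its brightest probe set and centred on its own mean log2 intensity. Only named genes with a mean intensity at or above the median of all probe sets were compared. The most alike were Ndfip2, an adaptor of Nedd4-family ubiquitin ligases (mean absolute difference 0.14 on the log2 scale), Ctsg, the granule protease cathepsin G (0.15), and Osbpl11, an oxysterol-binding protein (0.16). The mean absolute deviation of Cdkn1c from its own mean was 0.70. Ctsg read 804, 822 and 806 on the knock-in arrays and 3739, 1527 and 2219 on the wild-type arrays. Like Cdkn1c it peaked on wild-type replicate 1, with every knock-in array below every wild-type array. Its knock-in arrays were nearly level, whereas those of Cdkn1c rose from 118 to 167. With 6 arrays such a likeness describes these arrays only.

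Cdkn1c is imprinted, and genes listed for its chromosomal neighbourhood were read on the same arrays. Being on the list does not mean that a gene shares the control of Cdkn1c, which was not tested. Of 19 genes listed for that neighbourhood 18 were measured, with 11 higher and 7 lower in knock-in HSCs and a median log2 difference of 0.08 (-0.03 after median centring and -0.04 without wild-type replicate 3), against 0.01 over all 18193 named genes. Of them 0 passed the test and 1 had no overlap, Igf2, a paternally expressed growth factor, against 12.8% of named genes without overlap. Igf2 read 105, 34 and 27 in knock-in HSCs and 126, 123 and 224 in wild type (log2 difference -1.70, adjusted p = 0.579, limma). It was lower, as Cdkn1c was, although its PU.1 ki/ki replicate 1 lay close to the lowest wild-type array. Picked after the values were seen, Kcnq1ot1, the symbol of the noncoding RNA that silences the paternal Cdkn1c allele, read 573, 323 and 173 against 97, 215 and 26. Its groups overlapped (1.94), and whether its probe set also reads Kcnq1 was not examined. Of the 5 other Kcnq1ot1 probe sets 1 had the opposite sign. Phlda2, a maternally expressed neighbour, was picked likewise and read 364, 142 and 165 against 71, 21 and 170 (1.67, overlapping).

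Promoters of Cdkn1a, Cdkn1b and Cdkn2a are shown because these genes had readings that disagreed between probe sets or, for Cdkn2a, because 1 probe set stands for a locus with 2 starts and 2 proteins. RefSeq windows of 300 bases, 250 before and 50 after each start (GRCm38.p6), were at hand for 6 of the 7 members, 9 windows in all. Cdkn1c had none. Each was searched on both strands for GAGGAA, the core of the PU.1 motif, and for the core of the p53 motif, CATG, any 6 bases, CATG. Capitals mark the matches, which do not overlap each other. The first Cdkn1a window is chr17:29090729-29091028 and the second chr17:29093519-29093818, both on the plus strand. Cdkn1b is at chr6:134920151-134920450 on the plus strand. Of Cdkn2a, the distal start, that of Arf, is at chr4:89294570-89294869 and the start of p16 at chr4:89282143-89282442, both on the minus strand.
Cdkn1a first start: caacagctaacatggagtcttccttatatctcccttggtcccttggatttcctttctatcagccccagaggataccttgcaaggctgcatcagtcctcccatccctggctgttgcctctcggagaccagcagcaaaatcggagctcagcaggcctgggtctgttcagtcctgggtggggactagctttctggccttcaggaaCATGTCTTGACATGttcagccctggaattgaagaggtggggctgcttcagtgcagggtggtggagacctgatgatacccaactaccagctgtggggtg
Cdkn1a second start: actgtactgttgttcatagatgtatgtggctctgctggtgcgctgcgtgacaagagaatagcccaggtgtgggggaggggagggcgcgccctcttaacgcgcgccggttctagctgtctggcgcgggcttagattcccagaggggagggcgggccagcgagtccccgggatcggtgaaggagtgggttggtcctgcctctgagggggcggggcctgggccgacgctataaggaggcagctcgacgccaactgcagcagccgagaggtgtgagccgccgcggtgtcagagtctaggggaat
Cdkn1b: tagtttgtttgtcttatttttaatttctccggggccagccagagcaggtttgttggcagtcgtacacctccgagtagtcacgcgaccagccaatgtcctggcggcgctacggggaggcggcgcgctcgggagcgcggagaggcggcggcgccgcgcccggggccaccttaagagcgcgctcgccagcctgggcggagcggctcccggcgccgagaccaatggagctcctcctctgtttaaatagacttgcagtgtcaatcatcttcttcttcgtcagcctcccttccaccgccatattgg
Cdkn2a Arf start: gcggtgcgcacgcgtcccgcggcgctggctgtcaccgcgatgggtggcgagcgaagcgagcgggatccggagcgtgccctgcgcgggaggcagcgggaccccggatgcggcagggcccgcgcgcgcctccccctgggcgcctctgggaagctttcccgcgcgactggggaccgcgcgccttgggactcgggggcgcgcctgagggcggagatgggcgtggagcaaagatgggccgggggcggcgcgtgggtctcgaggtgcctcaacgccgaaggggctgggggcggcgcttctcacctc
Cdkn2a p16 start: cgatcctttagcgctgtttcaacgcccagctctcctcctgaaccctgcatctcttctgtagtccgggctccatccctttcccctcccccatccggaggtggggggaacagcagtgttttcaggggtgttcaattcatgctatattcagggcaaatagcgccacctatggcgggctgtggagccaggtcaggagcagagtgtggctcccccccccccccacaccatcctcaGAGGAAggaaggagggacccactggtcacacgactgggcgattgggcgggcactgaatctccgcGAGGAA

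The p53 core stood once, in the first Cdkn1a window, at position -48 with the start at 0, and in 0.712% of 32851 windows of the same length. GAGGAA stood in 2 of the 9 member windows, that of p16 with 2 matches and 1 of the Cdkn2c windows with 1 match, and in 28.3% of all windows. The Cdkn1a and Cdkn1b windows held none. A match is a string of letters and no measured site, and PU.1 binding was not measured here.

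Cdkn1a encodes p21, the CDK inhibitor that p53 induces. The brighter of its 2 probe sets, 1421679_a_at, read 160, 84 and 73 on PU.1 ki/ki replicates 1 to 3 and 196, 261 and 134 on wild-type replicates 1 to 3. The groups overlapped through PU.1 ki/ki replicate 1, which lay above wild-type replicate 3. The means were 106 ± 47.4 and 197 ± 63.5 (SD, n = 3), a log2 difference of -0.93 ± 0.41 (SE, 95% interval -1.97 to 0.11, adjusted p = 0.623, limma). When single arrays were left out it lay between -1.27 without PU.1 ki/ki replicate 1 and -0.70 without wild-type replicate 2. It overlapped no longer without PU.1 ki/ki replicate 1 or without wild-type replicate 3.

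The second probe set of Cdkn1a, 1424638_at, was close to the array median. It read 12, 41 and 28 in knock-in HSCs and 46, 32 and 121 in wild type. The log2 difference had the same sign, -1.19 ± 0.68 (SE, 95% interval -2.92 to 0.54, adjusted p = 0.672), and it was -0.65 without wild-type replicate 3 and -0.72 without PU.1 ki/ki replicate 1. The order of the arrays was not the same on both probe sets, and the brighter one exceeded the other by 1.11 to 13.3 times. PU.1 ki/ki replicate 1, the highest knock-in array on the brighter probe set, was the lowest of all on the second. Averaged per array on the log2 scale the 2 probe sets did not overlap between groups, with a difference of -1.06 ± 0.20 (unadjusted p = 0.00266, adjusted p = 0.413 in a limma fit over all named genes). The SE is small because the 2 readings deviated in opposite directions and cancelled. Centred on their own means they stood at 0.22 and -1.55 on PU.1 ki/ki replicate 1, and at -0.04 and 1.68 on wild-type replicate 3. By brightest probe set 12.8% of named genes had no overlap, and the share for averages is not given here. The 3 genes most like the brighter probe set were Capn1, a calpain protease (mean absolute difference 0.08), Them7 (0.16) and Emb, the adhesion protein embigin (0.17), beside a mean absolute deviation of 0.55 for Cdkn1a itself.

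Of 18 measured of 19 other p53 targets, 12 had a higher and 5 a lower mean log2 intensity in knock-in HSCs. Pmaip1 read the table minimum of 10 on all 6 arrays. By mean linear intensity Sesn2 (198 against 237) and Polk (74.7 against 78) were lower in knock-in HSCs, although their log2 differences were positive. The median log2 difference was 0.40, against 0.01 over all named genes. It was 0.10 without PU.1 ki/ki replicate 2, 0.19 without PU.1 ki/ki replicate 1 and 0.20 after quantile normalization, and 11 were higher and 7 lower after median centring. Of these 0 passed, and 3 higher and 1 lower had no overlap, where 6.44% and 6.36% of named genes had none. Ccng1, cyclin G1, read 1701, 1797 and 1954 in knock-in HSCs and 809, 97 and 104 in wild type (3.16, adjusted p = 0.519, limma). It was lowest on wild-type replicates 2 and 3, the arrays with lost signal. Tnfrsf10b, a death receptor, read 87, 84 and 97 against 64, 38 and 61 (0.74), and Ddb2, a sensor of DNA damage, 161, 310 and 223 against 338, 451 and 554 (-0.97). In the Ink4a/Arf and p53 axis, 5 of 7 measured genes were higher and 1 of them did not overlap (median 0.94, and -0.03 without wild-type replicates 2 and 3). That was Mdm2, the ubiquitin ligase that removes p53, which read 2187, 299 and 682 against 262, 120 and 264 (1.91, adjusted p = 0.617). Its lowest PU.1 ki/ki array was only just above the highest wild-type array. The same reading of Mdm2 is 1 of the 3 higher p53 targets without overlap, so it was counted in both lists.

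**Figure D2:**
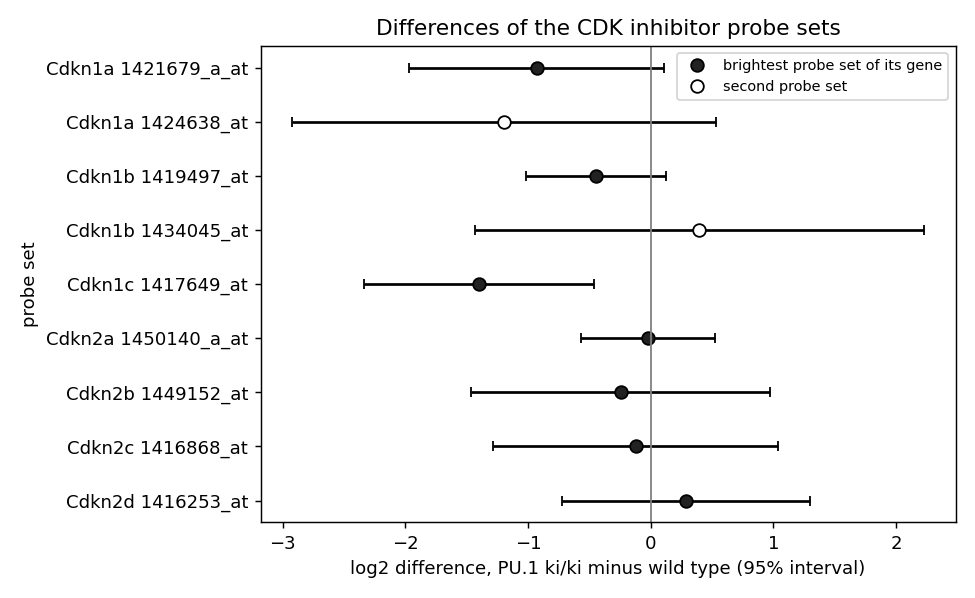
Log2 difference of PU.1 ki/ki minus wild type for each CDK inhibitor probe set (point, filled for the brightest probe set of a gene) with its 95% interval from the limma fit. The interval of Cdkn1c, -2.34 to -0.46, is the only one of the 9 that leaves out 0, before adjustment for the number of probe sets.

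Cdkn1b encodes p27, which the SCF ligase with Skp2 marks for degradation. Its brighter probe set, 1419497_at, had the narrowest spread of the Cip/Kip readings. It read 382, 308 and 326 in knock-in HSCs and 429, 375 and 601 in wild type. The groups overlapped by a small margin, since PU.1 ki/ki replicate 1 lay just above wild-type replicate 2. The means were 339 ± 38.6 and 468 ± 118 (SD, n = 3), a log2 difference of -0.44 ± 0.22 (SE, 95% interval -1.01 to 0.13, adjusted p = 0.654, limma). Without wild-type replicate 3, the highest array, it was -0.25.

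The second probe set of Cdkn1b, 1434045_at, pointed the other way and varied more. It read 211, 153 and 467 in knock-in HSCs and 267, 77 and 319 in wild type. The log2 difference was 0.40 ± 0.72 (SE, 95% interval -1.43 to 2.23, adjusted p = 0.891), and it became -0.24 without wild-type replicate 2 and -0.06 without PU.1 ki/ki replicate 3. The mean of both probe sets differed by -0.02 ± 0.42. A difference of Cdkn1b was thus not detectable at the spread of these arrays. The 3 genes most like the brighter probe set were Phf2, a histone demethylase of the PHF family (mean absolute difference 0.04), Tmem43 (0.06) and Miip (0.06), beside a mean absolute deviation of 0.24 for Cdkn1b, and all 3 were likewise highest on wild-type replicate 3.

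**Figure D3:**
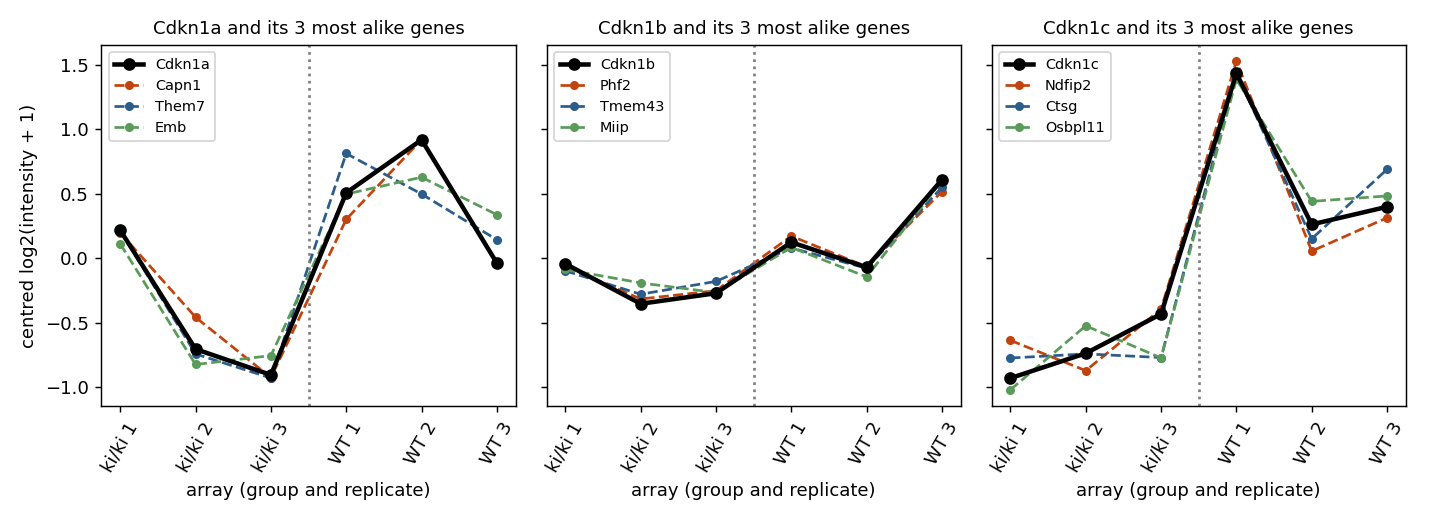
Log2(intensity + 1) on each array, centred on its mean over the 6 arrays, for the brightest probe sets of Cdkn1a, Cdkn1b and Cdkn1c (black) and the 3 named genes closest to each (dashed). Named genes with a mean intensity below the median of all probe sets were not compared. The 3 inhibitor genes are highest on different wild-type arrays, Cdkn1a on replicate 2, Cdkn1b on replicate 3 and Cdkn1c on replicate 1.

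Genes of Cip/Kip protein turnover and control were split between higher and lower. Of 17 measured turnover genes, 9 were higher and 8 lower (median 0.03, and -0.07 after median centring), and 1 had no overlap, Cops5, a subunit of the COP9 signalosome, at 774, 762 and 844 in PU.1 ki/ki against 733, 554 and 156 in wild type (0.99, adjusted p = 0.691, limma). Its wild-type value of 156 stood on replicate 3, an array with lost signal. Of 25 measured activators of Cip/Kip genes 14 were higher and 11 lower (median 0.08, and -0.03 after median centring). The 1 without overlap was the nuclear receptor Nr4a1, which is linked to HSC quiescence, at 27, 31 and 41 against 43, 70 and 86 (-0.95, adjusted p = 0.565). It was removed by the filter on dim probe sets, which left 23 activators, 0 of them without overlap. With single arrays left out these medians lay on both sides of 0, at -0.08 to 0.24 for turnover and -0.08 to 0.16 for activators. In both lists 0 passed, and 12.8% of all named genes had no overlap.

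Cdkn2c encodes p18, and its probe set, 1416868_at, showed the same spread in both groups. It read 557, 292 and 238 in knock-in HSCs and 565, 347 and 254 in wild type. Replicate 1 was well above the other arrays in either group, and the ranges nearly coincided. The means were 362 ± 171 and 389 ± 160 (SD, n = 3), a log2 difference of -0.12 ± 0.45 (SE, 95% interval -1.28 to 1.04, adjusted p = 0.961, limma). Without wild-type replicate 1 it was 0.19, without PU.1 ki/ki replicate 3 0.13, and without wild-type replicates 2 and 3 it was -0.74.

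Cdkn2d encodes p19 of the Ink4 family, a protein distinct from p19 Arf. Its probe set, 1416253_at, read 171, 184 and 112 in knock-in HSCs and 123, 195 and 80 in wild type. Replicate 3 was the lowest array of either group. The means were 156 ± 38.4 and 133 ± 58.1 (SD, n = 3), a log2 difference of 0.29 ± 0.40 (SE, 95% interval -0.72 to 1.30, adjusted p = 0.842), and -0.03 without wild-type replicate 3. Of the 7 brightest member probe sets it was the only one with a higher mean log2 intensity in PU.1 ki/ki.

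Cdkn2a and Cdkn2b, the neighbouring genes of p16, Arf and p15, were dim. Cdkn2a, 1450140_a_at, read 18, 20 and 18 in knock-in HSCs and 18, 15 and 25 in wild type, below the array median on all 6 arrays. The log2 difference was -0.02 ± 0.21 (SE, 95% interval -0.57 to 0.53). The probe set carries the symbol of the whole locus, and the annotation does not say whether it reads p16, Arf or both. Cdkn2b, 1449152_at, read 22, 27 and 20 against 53, 25 and 15, and only wild-type replicate 1 was above the array median. Its log2 difference was -0.24 ± 0.48 (SE, 95% interval -1.46 to 0.98), 0.22 without wild-type replicate 1 and -1.18 without wild-type replicates 2 and 3. Readings this close to the minimum understate any difference. Their 4 listed genomic neighbours, Mtap, Dmrta1, Elavl2 and Klhl9, had 1 higher (Klhl9) and 2 lower, Dmrta1 read the minimum on all arrays, and 0 were without overlap.

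Repressors of the Ink4 and Cip/Kip genes were split between higher and lower. Of 29 measured 14 were higher and 15 lower (median -0.06, and -0.08 to 0.14 with single arrays left out), and 0 passed. The median was -0.17 after median centring and -0.15 after quantile normalization, with 13 higher and 16 lower in each. Without overlap were 1 higher and 2 lower, beside 6.44% and 6.36% of named genes. Myc, which represses Cdkn1a and Cdkn2b together with Miz1, read 3482, 3084 and 3553 in knock-in HSCs and 1668, 2115 and 1867 in wild type (0.84, adjusted p = 0.430, limma). Its lowest PU.1 ki/ki array was well above its highest wild-type array, and the arrays with lost signal were not its lowest. Suz12, a subunit of Polycomb complex PRC2, read 873, 838 and 872 against 1205, 1749 and 1087 (-0.61, adjusted p = 0.578), and 2 of its 5 other probe sets had the opposite sign. Dnmt1, the maintenance DNA methyltransferase, read 3981, 4581 and 2973 against 4737, 5482 and 6874 (-0.57, adjusted p = 0.613).

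By their brightest probe sets and with all arrays as deposited, the kinases and cyclins that the inhibitors bind all overlapped between groups. This did not hold in every setting. After quantile normalization 1 was lower without overlap (7.45% of all probe sets lower, 12.6% in either direction). Without wild-type replicate 1, 4 were higher and 1 lower without overlap (30.3% of all probe sets in either direction). There were 2 higher without PU.1 ki/ki replicate 3 (18.6%) and 1 lower without wild-type replicate 2 (23.1%). Leaving out wild-type replicate 3 gave 1 higher and 1 lower (21.7%). Leaving out wild-type replicates 2 and 3 gave 1 higher and 6 lower (51.5%). Of 12 measured genes of the CDK4, CDK6 and CDK2 complexes and the later cyclins 8 were higher and 4 lower, with a median of 0.20, and 0 passed. Cdk4 read 1943 to 2398 in knock-in HSCs and 1963 to 2745 in wild type, and Ccnd2, the cyclin D2 gene, 3429 to 3724 and 2379 to 4098. Both were picked after their values were seen. Of their other probe sets, 1 of 2 for Cdk4 and 3 of 6 for Ccnd2 had the opposite sign. Of the 11 retinoblastoma and E2F genes downstream of these kinases 6 were higher and 5 lower (median 0.21), and E2f3 alone had no overlap, at 444, 467 and 373 against 1005, 897 and 557 (-0.90, adjusted p = 0.535, limma). Its other probe set had the same sign. Of 13 other genes that restrain CDKs 7 were higher and 6 lower (median 0.28), with Cables2 (1.10) and Cdk2ap1 (0.28) higher and Cables1 (-0.52) lower without overlap. Of the 2 other probe sets of Cdk2ap1 1 had the opposite sign. Of 19 measured proliferation genes 14 were higher and 5 lower (median 0.34). The licensing factor Cdc6, at 756, 855 and 650 against 520, 91 and 281 (1.65), and the mitotic kinase Aurka, at 298, 169 and 285 against 143, 86 and 64 (1.39), did not overlap, and the other probe set of Aurka had the opposite sign. Without wild-type replicates 2 and 3 the medians of these 4 lists turned negative, to -0.12, -0.36, -0.09 and -0.36 in the order given, and that of proliferation was 0.82 without wild-type replicate 1. The median of the other restrainers was -0.05 without wild-type replicate 3, and that of the retinoblastoma and E2F genes 0.0018 and that of proliferation -0.00034 without wild-type replicate 2. After median centring 6 of 12 genes of the CDK complexes and 11 of 19 proliferation genes were higher. In none of these lists did a gene pass, and 12.8% of named genes had no overlap.

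**Figure D4:**
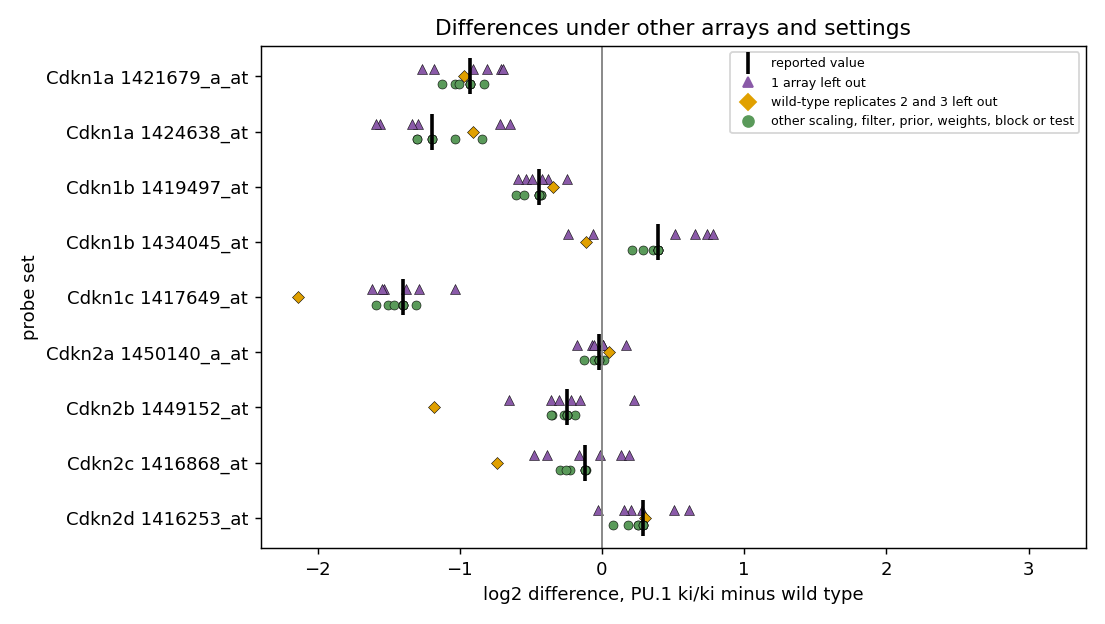
Log2 difference of PU.1 ki/ki minus wild type for each CDK inhibitor probe set as reported (black bar), with 1 array left out (triangles), without wild-type replicates 2 and 3 (diamonds) and under the other settings (circles). Cdkn1c lies between -2.13 and -1.03 and both Cdkn1a probe sets stay below 0, whereas the second Cdkn1b probe set and the 4 Ink4 probe sets lie on both sides of 0.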

How the data were processed

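Intensities of 6 arrays, 1 per probe set, were used as deposited. RMA is the tool named in the submitters' processing notes. Its version, any conversion from a log scale and the minimum of 10 are not given in the sources used here. Genotypes and replicate numbers came from the sample titles. Each sample's free text, about embryos, goes against its other labels and was not used. Of 45101 table rows, 64 controls were left out, and 0 columns were unused. Symbols came from the platform annotation, with 34945 probe sets of 1 symbol, 932 of several and 9160 not listed.

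For all 45037 probe sets log2(intensity + 1) was modelled on genotype alone in limma 3.58.1 under R 4.3.3, by lmFit and eBayes. P-values were adjusted by Benjamini-Hochberg over all probe sets, with a threshold of 0.05. Differences of dim probe sets are understated on this scale. Lists used the brightest probe set per gene, 173 of 181 entries, and were described by counts and medians of the log2 differences. All member probe sets were named, with up to 2 genes per direction and list without overlap, and the 3 most alike genes of each Cip/Kip gene. Figures were drawn with matplotlib 3.10.9. Precision is limited by the number of arrays. Members, lists and the left-out pair of arrays were chosen with earlier results of these data known. The alternatives were other scalings, pseudocount 16, a filter on dim probe sets, another variance prior, array weights, a replicate block, an unmoderated test, left-out arrays and the mean of a gene's probe sets.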

Additional observations from a re-analysis of the deposited data

How the results depend on the processing

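No probe set passed in any alternative, members and listed genes included (limma, and 0 of 43874 in the unmoderated test). At an unadjusted p under 0.05 there were 2535 to 7183 probe sets when single arrays were left out. Of 132 recomputed member differences 120 kept their sign and 12 did not. The filter on dim probe sets, the other variance prior, the replicate block and the unmoderated test leave the difference itself unchanged. Their signs were therefore fixed in advance and are counted among those kept. Members without overlap, 1 as reported, were 3 after quantile normalization (12.6% of all probe sets), 2 after centring arrays on their median (19.5%), 6 without wild-type replicates 2 and 3 (51.5%), and 1 to 3 with single arrays left out (18.2% to 30.3%). Centring shifted the median over all probe sets to -0.11 from 0.0021, and the unadjusted split of higher and lower from 2072 and 1659 to 1593 and 2130 (1558 and 2243 after quantile normalization). With single arrays left out the second Cdkn1b probe set lay at -0.24 to 0.78, Cdkn2a at -0.18 to 0.17, Cdkn2b at -0.65 to 0.22, Cdkn2c at -0.48 to 0.19 and Cdkn2d at -0.025 to 0.61. Cdkn2a was 0.011 with array weights and 0.048 without wild-type replicates 2 and 3, where the second Cdkn1b probe set was -0.11. The causes were not tested. With the replicate number as a block (replicate block) 0 passed and Cdkn1c stayed at -1.40 (adjusted p = 0.664). Same-numbered arrays deviated from their group means with correlations of -0.02 to 0.02 over all probe sets. With 3 arrays per group and lost signal on wild-type replicates 2 and 3, this cannot decide whether the numbers pair the arrays.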
